A study of Mus musculus with 29 samples.

Results

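Complement and coagulation genes were followed here in mouse liver after obstruction of bile flow. The list names 39 genes for liver-made proteins of the complement, clotting and fibrinolysis systems. The rule names the genes by what their proteins do, and it was written with earlier results of these data known. A named array row was found for 35 of the 39, out of 22180 named genes in all, and all 35 passed the filter on low signal that left 14699 genes for testing. Masp2 and Klkb1 have only rows shared with a neighbouring gene and were not named. C3 and Cpb2 were not analysed here.

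Wild-type (wt) male C57BL/6N mice, 8 to 10 weeks old, had the extrahepatic common bile duct tied off (bile duct ligation, BDL) or a sham operation, with standard diet throughout. Whole liver was taken 1, 3, 7 or 21 days after BDL, with 5 mice at each day. Sham livers came from 3 mice at day 1, 2 mice at day 3 and 4 mice at day 7, and each mouse gave 1 array. No sham liver of day 21 was used here, so BDL at day 21 was set against sham at day 7, which is also the control of BDL at day 7. In that comparison ligation and elapsed time cannot be told apart.

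Complement is a set of plasma proteins that tag microbes and damaged cells. Antibodies, mannose-binding lectins or spontaneous activation start it, the routes meet at the central component C3, and the terminal components build a pore in the target membrane. The clotting cascade turns prothrombin into thrombin, which cuts fibrinogen into fibrin, while anticoagulant proteins brake the cascade and plasmin dissolves the clot. Hepatocytes make most of these plasma proteins, and inflammatory signals such as interleukin-6 raise some of them and lower others in the acute phase response.

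The 29 arrays had similar centres, with medians over all rows of 4.9 to 5.13 (log2), and any pair of them correlated at 0.946 or more. The summed level of 12 hepatocyte markers ran from 16.18 to 16.49 over the sham arrays and from 16.17 to 16.56 over the BDL arrays, and in no group did a marker average less than 5, the filter level. The brightest markers weigh most in this sum. At an adjusted p under 0.05 in limma, 2 of the 12 were lower in BDL than in sham at day 1 (16.7%, against 4.8% of all tested genes). The lowest difference there was -3.23 (log2). At day 3, 1 was lower and 1 higher (8.33% each, against 3.69% and 6.47%). At days 7 and 21, 1 was lower (8.33%, against 4.97% and 7.9%). Among the day 1 arrays, 4 stood apart: sham replicates 1 and 3 and BDL replicates 2 and 3 had a standard deviation of 1.96 to 1.98 over all named genes, against 2.06 to 2.17 in every other array. As a term in the model, membership of these 4 narrow arrays lowered 18 of the 35 members, with shifts from -0.75 to 0.02 (log2) and a median of -0.36, while over all genes it lowered 2659, raised 1075 and had a median of -0.06. The 4 were picked by their spread in these same values. At similar medians a narrower spread goes with lower values of bright genes, and most members are bright. The shift of the members is therefore not a result separate from that choice. The narrow arrays are 2 of the 3 sham arrays and 2 of the 5 BDL arrays of day 1, so they weigh more on the sham mean. For members that read lower in them, this makes falls at day 1 smaller and rises larger. Day 1 results are given with and without the narrow arrays where the call changes.

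Values are log2 signals, and a difference of 1 is a doubling. Each difference is BDL minus sham, given ± its standard error from the linear model over all 29 arrays, and a change was called at a Benjamini-Hochberg adjusted p under 0.05 in limma. Signals of different genes come from different probes, so only differences within a gene are compared. Over the 9 sham arrays the member signals averaged 6.29 for C1s1 at the low end and 13.35 for Fgb at the high end, and 30 of the 35 lay over 10, against 4.51% of tested genes. The brightest signal on any array was 14.0 to 14.22, so the brightest members sat near the top of the scale, where differences can be compressed. In whole liver, fewer cells of a type and less RNA per cell cannot be told apart.

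The members moved in a few directions and by small amounts. Over the 4 comparisons of BDL with sham, 17 of the 35 passed the test at least once and 18 never did, and the 39 calls ranged in size from 0.28 to 1.98. Only Mbl2 moved by more than 1 in any of these comparisons, and 22 members never differed by more than 0.5. At day 1, 2 members were called higher and 10 lower, where 8.52% of all tested genes were higher and 4.8% lower, and the median difference of the members was -0.14. At day 3, 2 were higher and 5 lower with a median of -0.12, against 6.47% and 3.69% of all genes. At day 7, 3 were higher and 5 lower with a median of -0.04, against 14.2% and 4.97%. At day 21, 5 were higher and 7 lower with a median of 0.01, against 17.3% and 7.9%. The median over all tested genes was 0.02 at days 1, 3 and 21 and 0.03 at day 7. In the full fit, calls of lower members were the larger share at each day, while among all genes the higher calls were. At days 1 and 21 the lower calls stayed the larger share with any 1 array left out. At day 3 the split was 7 higher and 5 lower without BDL day 3 replicate 2. At day 7 it was 3 and 2 without Sham day 7 replicates 2, 3 or 4. Without BDL day 7 replicates 1, 3 or 4 it was 3 and 3. With any other array of days 3 and 7 left out, lower calls were still the larger share. At an unadjusted p under 0.05 in limma, 9 were higher and 9 lower at day 3.

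**Figure D1:**
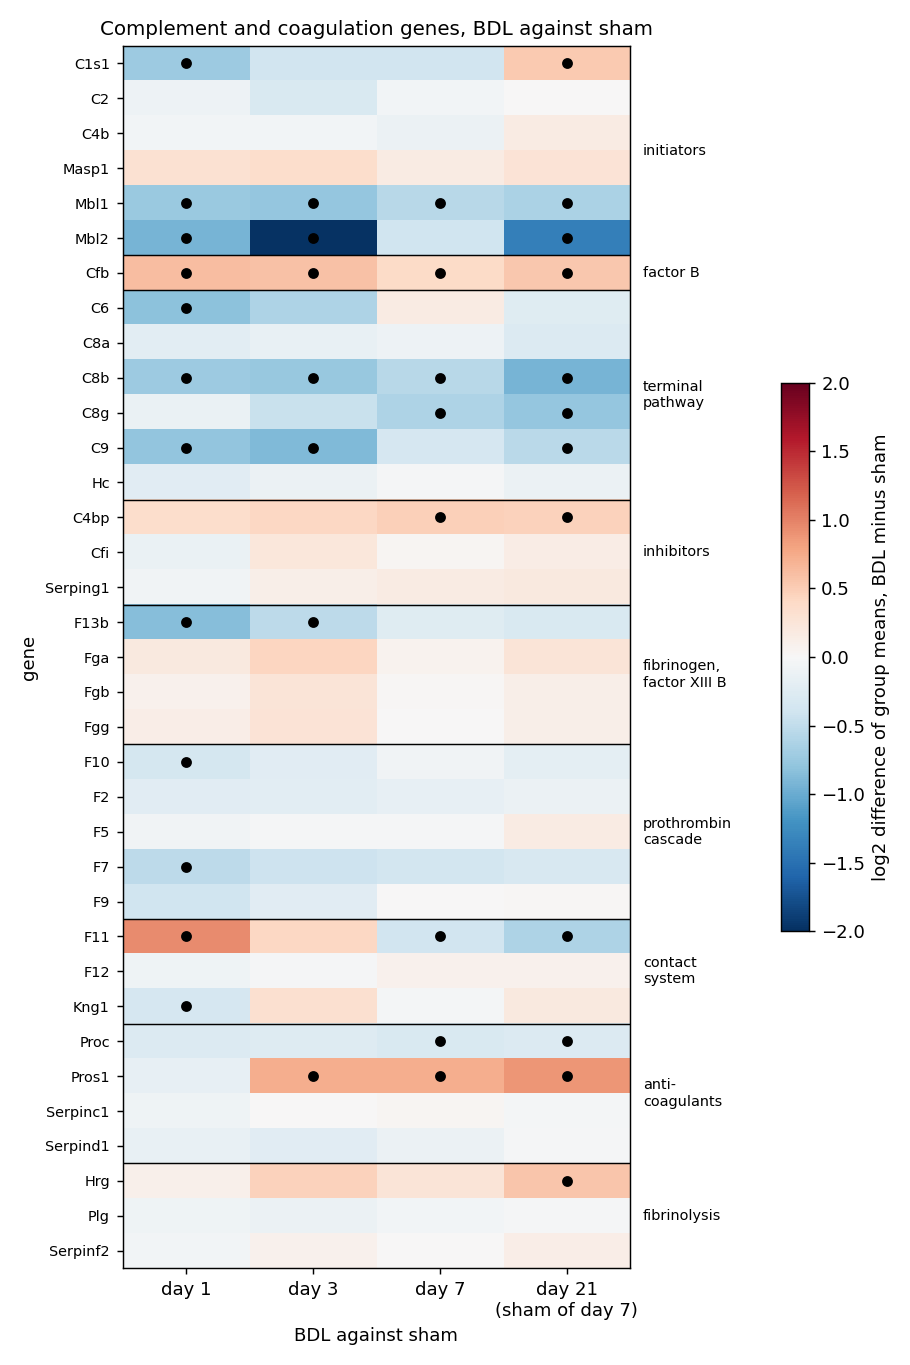
Difference in log2 signal between BDL and sham for each of the 35 tested members (rows, grouped by role) at 4 days (columns), with blue for lower and red for higher in BDL and a black point where the adjusted p is under 0.05. Mbl1 and C8b are blue with a point in all 4 columns, Cfb is red with a point in all 4, and F11 goes from red at day 1 to blue at days 7 and 21.

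The same call was made at all 4 days for 3 members: Mbl1 and C8b were lower and Cfb was higher. C9 and Mbl2 were lower at days 1, 3 and 21, and Pros1 was higher at days 3, 7 and 21. F11 was called at 3 days with a change of direction, higher at day 1 and lower at days 7 and 21. C1s1, with a fall at day 1 and a rise at day 21, also changed direction. C4bp rose at days 7 and 21, C8g and Proc fell at those days, and F13b fell at days 1 and 3. Of the 4 comparisons, C6, F7, F10 and Kng1 passed the test as falls at day 1 and Hrg as a rise at day 21, which does not show that the other days differ. The difference between days 7 and 1 is tested further down.

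Both mannose-binding lectin genes fell, and Mbl2 gave the largest difference of any member. Mbl1 and Mbl2 encode the mannose-binding lectins, which bind sugars on microbes and start complement through their serine proteases. Mbl2 on the sham arrays read 9.45, 9.79 and 9.49 at day 1, 9.90 and 10.01 at day 3 and 10.61, 10.02, 10.01 and 9.88 at day 7. After BDL it read 9.23, 8.30, 7.83, 8.80 and 9.08 at day 1 and 8.51, 8.89, 7.73, 7.49 and 7.27 at day 3. Every BDL array of those days was below every sham array of its day, and the day 3 arrays spread over more than a log2 unit among themselves. BDL arrays read 9.42, 10.14, 9.95, 9.55 and 9.61 at day 7, overlapping the sham arrays, and 8.93, 8.99, 8.73, 8.79 and 8.43 at day 21, below all sham arrays again. The differences were -0.93 ± 0.29 at day 1 (adjusted p = 0.0321), -1.98 ± 0.33 at day 3 (adjusted p = 0.000241), -0.40 ± 0.27 at day 7 (adjusted p = 0.344) and -1.36 ± 0.27 at day 21 (adjusted p = 0.000309). The fall at day 3 amounts to 3.94-fold and that at day 21 to 2.56-fold, and both were called in every alternative. The day 1 call of Mbl2 was lost without Sham day 1 replicates 1, 2 or 3 (adjusted p 0.069 to 0.0912), without BDL day 1 replicates 2 or 3 (adjusted p 0.0653 to 0.0848), with only the groups compared in the fit (adjusted p 0.0905) and outside the narrow arrays (adjusted p 0.388), and within the narrow arrays the difference was -1.41.

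Mbl1 on the sham arrays read 9.85, 10.51 and 10.33 at day 1, 9.67 and 10.53 at day 3 and 9.71, 10.33, 10.11 and 10.24 at day 7. After BDL, Mbl1 read 9.69, 9.31, 9.10, 9.56 and 9.73 at day 1 and 9.42, 9.41, 9.48, 9.54 and 8.78 at day 3. At the later days the BDL arrays read 9.63, 9.63, 9.40, 9.51 and 9.53 at day 7 and 9.16, 9.53, 9.63, 9.46 and 9.55 at day 21. The BDL arrays lay below the sham arrays of the comparison at each day, though with a small gap at all 4 days, where the lowest sham array lay close to the highest BDL array. Differences were -0.75 ± 0.19 at day 1 (adjusted p = 0.00822), -0.77 ± 0.22 at day 3 (adjusted p = 0.0204), -0.56 ± 0.18 at day 7 (adjusted p = 0.0239) and -0.63 ± 0.18 at day 21 (adjusted p = 0.0078). The day 21 call of Mbl1 held in every alternative. Its day 1 call was lost with only the groups compared in the fit (adjusted p 0.0516) and outside the narrow arrays (adjusted p 0.0882). The day 3 call of Mbl1 rests on a pair of sham arrays that differ by more than the effect in some BDL arrays: the difference was -0.34 without Sham day 3 replicate 2 and -1.21 without Sham day 3 replicate 1, and the call was lost without BDL day 3 replicate 5 (adjusted p 0.051), without Sham day 3 replicate 2 (adjusted p 0.549) and with only the groups compared in the fit (adjusted p 0.115). At day 7 it was lost without Sham day 7 replicates 2, 3 or 4 (adjusted p 0.0505 to 0.0905) and without BDL day 7 replicate 3 (adjusted p 0.0554).

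The start regions of the pair are shown because both lectin genes fell and their upstream sequences share a stretch close to the gene. Both come from the RefSeq promoter table (GRCm38.p6), run 5′ to 3′ along the gene's strand and stop at the last base before the annotated gene. The Mbl1 window is chr14:41151206-41151455 on the plus strand and the Mbl2 window is chr19:30232678-30232905 on the plus strand. Capitals mark the best-scoring shared stretch found by ungapped local alignment, 39 letters of which 34 are the same. How often other pairs of windows share such a stretch was not tested. The marked stretch lies from 45 to 7 bases before the start of Mbl1 and from 57 to 19 bases before the start of Mbl2.
Mbl1: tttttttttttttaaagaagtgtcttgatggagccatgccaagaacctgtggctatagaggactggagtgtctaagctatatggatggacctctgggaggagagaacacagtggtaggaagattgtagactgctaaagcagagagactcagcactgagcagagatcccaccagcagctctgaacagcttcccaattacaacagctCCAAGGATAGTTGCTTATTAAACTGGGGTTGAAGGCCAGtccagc
Mbl2: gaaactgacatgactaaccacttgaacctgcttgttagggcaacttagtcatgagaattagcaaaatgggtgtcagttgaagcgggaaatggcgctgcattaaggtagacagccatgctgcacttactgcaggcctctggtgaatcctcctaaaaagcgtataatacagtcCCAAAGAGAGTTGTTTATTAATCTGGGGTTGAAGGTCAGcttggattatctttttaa

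The other measured initiators moved little or less clearly. C1s1 encodes the C1s protease of the classical route and was the dimmest member. Its kept row read 6.28, 6.48 and 6.07 in sham at day 1 against 5.66, 5.42, 5.17, 5.79 and 5.75 in BDL, with every BDL array lower and a difference of -0.72 ± 0.19 (adjusted p = 0.00938). C1s1 read 6.56 and 6.57 in sham and 6.42, 6.65, 6.10, 6.06 and 5.71 in BDL at day 3, where the groups overlap. At the later days it read 5.76, 6.22, 6.04 and 6.61 in sham at day 7, 5.47, 6.18, 5.74, 5.67 and 5.80 in BDL at day 7 and 6.69, 6.49, 6.73, 6.84 and 6.68 in BDL at day 21. Of the 5 arrays of day 21, 4 lay above all sham arrays of day 7, and the difference was 0.53 ± 0.17 (adjusted p = 0.0223). The gene has a near-identical neighbour, C1s2, and a second row of its own whose mean went the other way at day 21, 5.9 ± 0.2 in sham at day 7 against 5.43 ± 0.49 (SD) in BDL, so its later rise is uncertain. The day 1 call of C1s1 was lost outside the narrow arrays (adjusted p 0.157), and the day 21 call was lost without Sham day 7 replicates 1 or 3 (adjusted p 0.0633 to 0.113), without BDL day 21 replicate 4 (adjusted p 0.0545) and with the mean of its rows (adjusted p 0.92). C2, the protease that joins C4 in the classical convertase, C4b, whose signal cannot be separated from that of a near-identical copy, and Masp1, a protease carried by the lectins, were not called at any day, with differences between -0.31 and 0.35. Against all 9 sham arrays together Masp1 was higher at day 3 (0.50, adjusted p = 0.00863) and day 21 (0.39, adjusted p = 0.0284). Without Sham day 1 replicate 2 it was higher at day 1 (0.58, adjusted p = 0.0146).

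The terminal pathway assembles the membrane attack complex from C5 to C9, and part of its members fell. Of 6 tested, 3 were lower at day 1, 2 at day 3, 2 at day 7 and 3 at day 21, and 0 were higher at any day. At an unadjusted p under 0.05 in limma the higher count was also 0. Of all tested genes, 4.8%, 3.69%, 4.97% and 7.9% were called lower at these days, and 8.52%, 6.47%, 14.2% and 17.3% higher. C8b encodes the beta chain of C8, which docks the complex to the membrane together with C5b to C7. C8b on the sham arrays read 11.76, 12.17 and 11.64 at day 1, 12.02 and 12.22 at day 3 and 11.99, 12.10, 12.19 and 12.04 at day 7. After BDL it read 11.27, 11.08, 10.82, 10.99 and 11.54 at day 1, 11.55, 11.52, 11.26, 11.27 and 11.19 at day 3, 11.50, 11.52, 11.51, 11.48 and 11.62 at day 7 and 11.26, 10.90, 11.17, 11.30 and 11.09 at day 21. No BDL array reached its sham group at any day, although the highest at day 1 came close to the lowest sham array. The differences were -0.72 ± 0.14, -0.76 ± 0.15, -0.55 ± 0.12 and -0.93 ± 0.12 at days 1, 3, 7 and 21, with adjusted p = 0.000518, 0.00152, 0.00169 and 1.38e-06. The day 7 and day 21 calls of C8b held in every alternative, the day 1 call was lost with only the groups compared in the fit (adjusted p 0.052), and the day 3 call was lost without Sham day 3 replicate 2 (adjusted p 0.0607).

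C9 forms the ring of the pore. C9 read 12.01, 12.06 and 11.68 in sham and 11.05, 11.61, 10.83, 10.84 and 11.31 in BDL at day 1, and 11.70 and 11.93 in sham and 11.31, 11.16, 11.01, 10.87 and 10.28 in BDL at day 3. At day 7 it read 11.86, 11.96, 11.98 and 11.90 in sham and 11.62, 11.82, 11.50, 11.48 and 11.56 in BDL, and at day 21 11.34, 11.35, 11.49, 11.50 and 11.22 in BDL. All BDL arrays lay below the sham arrays of the comparison, with the smallest gap at day 7. C9 fell by 0.79 ± 0.17 at day 1 (adjusted p = 0.00237), by 0.89 ± 0.20 at day 3 (adjusted p = 0.00335) and by 0.54 ± 0.16 at day 21 (adjusted p = 0.0109), while the day 7 difference of -0.33 ± 0.16 had an adjusted p of 0.155. Its day 1 call was lost within the narrow arrays (adjusted p 0.107) and its day 3 call without Sham day 3 replicate 2 (adjusted p 0.0883) and with only the groups compared in the fit (adjusted p 0.065). With only the groups compared in the fit the day 7 difference passed (adjusted p 0.0244).

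C6 binds C5b as the complex starts to form. C6 in sham read 9.99, 11.05 and 10.24 at day 1, 10.46 and 10.79 at day 3 and 10.56, 10.63, 10.71 and 10.62 at day 7. In BDL it read 9.34, 9.60, 9.29, 9.57 and 10.25 at day 1, 10.42, 10.21, 10.01, 9.83 and 9.60 at day 3, 10.77, 10.61, 10.98, 10.80 and 10.86 at day 7 and 10.13, 10.39, 10.60, 10.50 and 10.33 at day 21. The lowest values are in BDL at days 1 and 3, the narrow sham arrays of day 1 lay among the BDL arrays of day 3, and at day 7 the BDL arrays were level with or above sham. C6 fell by 0.82 ± 0.20 at day 1 (adjusted p = 0.00618), with 1 BDL array inside the sham range. The day 1 difference was -0.51 without Sham day 1 replicate 2 and -1.33 outside the narrow arrays, and the call was lost without Sham day 1 replicate 2 (adjusted p 0.0749) and with only the groups compared in the fit (adjusted p 0.11). At days 3, 7 and 21 the differences of C6 were -0.61 ± 0.23, 0.17 ± 0.18 and -0.24 ± 0.18, with adjusted p = 0.0923, 0.58 and 0.376.

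C8g encodes the gamma chain of C8, a small lipocalin. C8g read 9.91, 10.70 and 9.77 in sham and 10.23, 9.77, 9.38, 10.14 and 10.43 in BDL at day 1, and 10.75 and 10.78 and 10.29, 10.66, 10.02, 10.33 and 10.27 at day 3. At day 7 C8g read 10.52, 10.76, 10.98 and 10.98 in sham and 10.30, 10.14, 10.26, 10.17 and 10.11 in BDL, and at day 21 9.82, 9.94, 10.07, 10.27 and 10.05 in BDL. The groups overlap at day 1, where the narrow arrays hold the lowest value of each group, and separate at days 3, 7 and 21. C8g fell by 0.61 ± 0.18 at day 7 (adjusted p = 0.0129) and by 0.78 ± 0.18 at day 21 (adjusted p = 0.00125). The day 7 call was lost against all 9 sham arrays together (adjusted p 0.099), where the difference was -0.38. C8a, the alpha chain of the same component, and Hc, the gene of C5, differed by -0.27 to -0.02 over the 4 days and were not called, though with the narrow arrays as a term Hc differed by -0.33 at day 1 (adjusted p = 0.036).

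**Figure D2:**
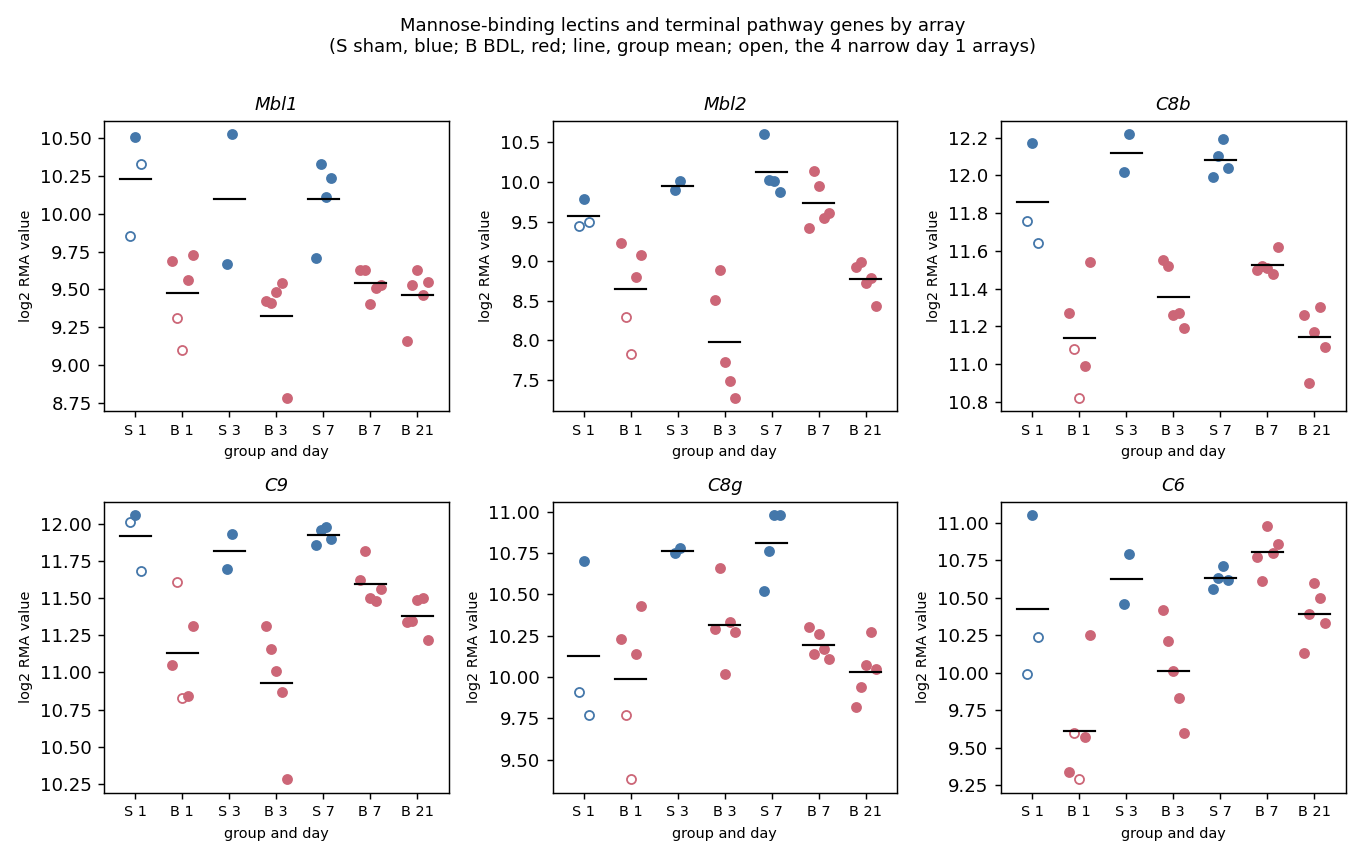
Log2 signal in each of the 29 arrays for 6 complement genes, by group and day, with sham in blue, BDL in red, a line at each group mean and open circles for the 4 narrow day 1 arrays. Mbl2 drops to 7.27 to 8.89 in BDL at day 3, returns to 9.42 to 10.14 at day 7 and is at 8.43 to 8.99 at day 21, while C8b stays below sham throughout.

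The windows upstream of C8b and C9 are given because their genes fell together, from the same RefSeq table (GRCm38.p6) and with the same direction and end. C8b lies at chr4:104766067-104766316 and C9 at chr15:6445096-6445345, both on the plus strand. Capitals mark matches, on either strand, to 5 short motifs written for factors that act on acute phase genes: CTGGGA for the interleukin-6 response core, TTCNNNGAA for STAT, TTNNGNAA for C/EBP, GTTAAT for an HNF1 core and CAAAGTCC for HNF4. C8b holds an HNF1 core match from 206 to 201 and a C/EBP match from 153 to 146 bases before the start, and C9 holds a C/EBP match from 132 to 125 bases before it.
C8b: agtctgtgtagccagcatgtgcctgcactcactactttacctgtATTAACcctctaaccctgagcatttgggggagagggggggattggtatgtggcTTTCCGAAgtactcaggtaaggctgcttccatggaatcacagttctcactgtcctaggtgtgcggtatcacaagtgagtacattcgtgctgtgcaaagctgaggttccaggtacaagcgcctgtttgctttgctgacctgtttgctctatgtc
C9: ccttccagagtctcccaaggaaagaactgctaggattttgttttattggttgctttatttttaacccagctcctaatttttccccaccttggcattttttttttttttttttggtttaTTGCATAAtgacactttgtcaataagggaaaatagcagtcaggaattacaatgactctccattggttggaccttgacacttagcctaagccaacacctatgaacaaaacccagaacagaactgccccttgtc
Of the 39 members, 30 are in the table. The search took the first 250 bases of each entry, also where a printed window stops sooner at the annotated gene. CTGGGA matched in 13 (43.3%, against 27% of all 32851 windows) and TTCNNNGAA in 6 (20%, against 7.02%). TTNNGNAA matched in 15 (50%, against 36.8%), GTTAAT in 7 (23.3%, against 6.43%) and CAAAGTCC in 0 (against 1.2%). Windows of the fibrinogen genes Fga, Fgb and Fgg all held CTGGGA. A match is a run of letters and says nothing of binding.

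On the activating side, factor B went the other way. Cfb encodes factor B, the protease of the alternative route that amplifies complement. Cfb in sham read 11.71, 12.02 and 11.69 at day 1, 11.70 and 11.73 at day 3 and 11.77, 11.84, 11.92 and 11.64 at day 7. In BDL it read 12.46, 12.22, 12.18, 12.55 and 12.67 at day 1, 12.16, 12.32, 12.35, 12.40 and 12.29 at day 3, 12.22, 12.14, 12.10, 12.14 and 12.32 at day 7 and 12.40, 12.32, 12.35, 12.30 and 12.29 at day 21. All 20 BDL arrays lay above all 9 sham arrays. Cfb rose by 0.61 ± 0.11 at day 1 (adjusted p = 0.000211), 0.59 ± 0.12 at day 3 (adjusted p = 0.00173), 0.39 ± 0.10 at day 7 (adjusted p = 0.00413) and 0.54 ± 0.10 at day 21 (adjusted p = 9.92e-05). As a fold these are 1.53, 1.51, 1.31 and 1.46. The calls at days 3, 7 and 21 held in every alternative, and the day 1 call was lost with only the groups compared in the fit (adjusted p 0.051).

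Of the 3 fluid-phase inhibitors of complement, 1 rose. C4bp encodes C4b-binding protein, which takes apart the classical convertase. C4bp in sham read 11.45, 11.79 and 11.27 at day 1, 11.66 and 11.69 at day 3 and 11.44, 11.77, 11.66 and 11.58 at day 7. In BDL C4bp read 11.95, 11.63, 11.59, 11.95 and 12.15 at day 1, 12.13, 11.96, 12.28, 12.18 and 11.95 at day 3, 12.14, 11.99, 12.11, 12.15 and 12.01 at day 7 and 12.08, 11.95, 12.30, 11.99 and 12.03 at day 21. The groups overlap at day 1 and separate at the later days. C4bp rose by 0.47 ± 0.12 at day 7 (adjusted p = 0.00414) and 0.46 ± 0.12 at day 21 (adjusted p = 0.0037), calls that held in every alternative. Its differences of 0.35 ± 0.13 at day 1 and 0.42 ± 0.14 at day 3 had adjusted p = 0.0633 and 0.0611. Both passed with a filter at log2 6 (adjusted p 0.0468 and 0.0466) and with cyclic loess normalization (adjusted p 0.0166 and 0.011). They also passed against all 9 sham arrays together (adjusted p 0.049 and 0.000189). Cfi, the protease that cuts C3b and C4b, and Serping1, the C1 inhibitor, differed by -0.14 to 0.22 and were not called against sham. Cfi in sham read 11.42, 12.14 and 11.62 at day 1, 12.11 and 12.05 at day 3 and 12.17, 12.14, 12.18 and 12.01 at day 7. In BDL Cfi read 11.85, 11.42, 11.09, 11.58 and 12 at day 1, 12.38, 12.18, 12.33, 12.33 and 12.27 at day 3, 12.14, 12.24, 12.19, 12.12 and 12.14 at day 7 and 12.39, 12.10, 12.37, 12.30 and 12.22 at day 21. The low values of Cfi are at day 1 in either group, and the narrow arrays hold the lowest of each. With the narrow arrays as a term Cfi differed by -0.29 at day 1 (adjusted p = 0.0478).

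Fibrinogen, the substrate of the clot, is built from 3 chains encoded by Fga, Fgb and Fgg. Fgb in sham read 13.38, 13.35 and 13.39 at day 1, 13.24 and 13.34 at day 3 and 13.41, 13.39, 13.47 and 13.16 at day 7. In BDL Fgb read 13.46, 13.42, 13.51, 13.48 and 13.41 at day 1, 13.60, 13.19, 13.64, 13.53 and 13.71 at day 3, 13.34, 13.55, 13.27, 13.37 and 13.41 at day 7 and 13.53, 13.46, 13.51, 13.46 and 13.43 at day 21. At day 3, 4 of the 5 BDL arrays were above both sham arrays and replicate 2 was below both. None of the 3 chains was called at any day in limma, and at an unadjusted p under 0.05 all 3 were higher at day 3. The day 3 differences were 0.43 ± 0.15 for Fga (adjusted p = 0.0715), 0.25 ± 0.11 for Fgb (adjusted p = 0.188) and 0.28 ± 0.13 for Fgg (adjusted p = 0.178). Without BDL day 3 replicate 2 the differences were 0.57, 0.33 and 0.38, with adjusted p = 0.00169, 0.0312 and 0.0288, and all 3 chains passed. Without that array 12 members were called at day 3 in place of 7. Against all 9 sham arrays together, with replicate 2 kept, Fga (0.37, adjusted p = 0.0065) and Fgg (0.24, adjusted p = 0.0344) also passed. At the other days the 3 chains differed by 0.01 to 0.26.

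F13b, the carrier chain of the factor that cross-links fibrin, was called lower at days 1 and 3. F13b in sham read 10.15, 10.18 and 10.09 at day 1, 10.34 and 10.11 at day 3 and 10.18, 10.20, 10.29 and 10.25 at day 7. In BDL F13b read 9.40, 9.52, 8.90, 9.12 and 9.49 at day 1, 9.75, 10.02, 9.52, 9.60 and 9.64 at day 3, 9.85, 10.06, 10.17, 9.96 and 9.91 at day 7 and 10.14, 9.90, 9.86, 9.89 and 9.85 at day 21. The sham arrays stayed within a narrow band and no BDL array reached the sham arrays of its comparison. F13b fell by 0.85 ± 0.13 at day 1 (adjusted p = 2.77e-05), a call that held in every alternative, and by 0.52 ± 0.14 at day 3 (adjusted p = 0.0186), a call lost without Sham day 3 replicate 1 (adjusted p 0.252) and with only the groups compared in the fit (adjusted p 0.0838). At days 7 and 21 the differences of F13b were -0.24 ± 0.12 and -0.30 ± 0.12, with adjusted p = 0.156 and 0.0535. The day 21 difference passed with a filter at log2 6 (adjusted p 0.042) and with cyclic loess normalization (adjusted p 0.0202). It also passed with only the groups compared in the fit (adjusted p 0.0229) and against all 9 sham arrays together (adjusted p 0.0251). Without BDL day 21 replicate 1 it passed as well (adjusted p 0.0284).

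In the core of the cascade, few differences passed the test. F2 encodes prothrombin, the precursor of thrombin. F2 in sham read 12.37, 12.44 and 12.40 at day 1, 12.32 and 12.31 at day 3 and 12.36, 12.28, 12.45 and 12.20 at day 7. In BDL F2 read 12.25, 12.21, 12, 12.18 and 12.19 at day 1, 12.13, 12.11, 12.11, 12.11 and 12.04 at day 3, 12.07, 12.24, 12.18, 12.10 and 12.14 at day 7 and 12.24, 12.29, 12.20, 12.17 and 12.10 at day 21. BDL arrays were below sham at days 1 and 3 without overlap, by -0.23 ± 0.08 (adjusted p = 0.0544) and -0.21 ± 0.09 (adjusted p = 0.158), which did not pass. With the narrow arrays as a term the day 1 difference of F2 was -0.26 (adjusted p = 0.0249). It also passed with a filter at log2 6 (adjusted p 0.0321) and without BDL day 1 replicate 1 (adjusted p 0.0485). Against all 9 sham arrays together F2 was lower at day 1 (-0.18, adjusted p = 0.0365), day 3 (-0.25, adjusted p = 0.00373) and day 7 (-0.20, adjusted p = 0.0158). A pair of vitamin K-dependent proteases upstream of thrombin fell at day 1. F7, the partner of tissue factor, differed by -0.53 ± 0.15 (adjusted p = 0.0203) and F10, which cuts prothrombin, by -0.35 ± 0.11 (adjusted p = 0.0267). The F7 call was lost without BDL day 1 replicate 3 (adjusted p 0.0519), without Sham day 1 replicate 2 (adjusted p 0.112), with only the groups compared in the fit (adjusted p 0.211) and outside the narrow arrays (adjusted p 0.0687), and the F10 call without BDL day 1 replicates 2 or 3 (adjusted p 0.0539 to 0.0658), without Sham day 1 replicates 2 or 3 (adjusted p 0.0838 to 0.0909), with only the groups compared in the fit (adjusted p 0.245) and outside the narrow arrays (adjusted p 0.254). F9, the hemophilia B factor, and F5, the cofactor that speeds thrombin formation, were not called, with differences from -0.40 to 0.17. With the narrow arrays as a term F9 was lower at day 1, at -0.50 (adjusted p = 0.0185). The differences of F7 at days 3, 7 and 21 were -0.42 ± 0.18, -0.37 ± 0.14 and -0.32 ± 0.14 (adjusted p = 0.137, 0.0636 and 0.0959). They passed with cyclic loess normalization at all 3 of these days (adjusted p 0.00488 to 0.0283), and the effect of day 7 minus that of day 1 was 0.15 ± 0.21 (adjusted p = 0.774).

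**Figure D3:**
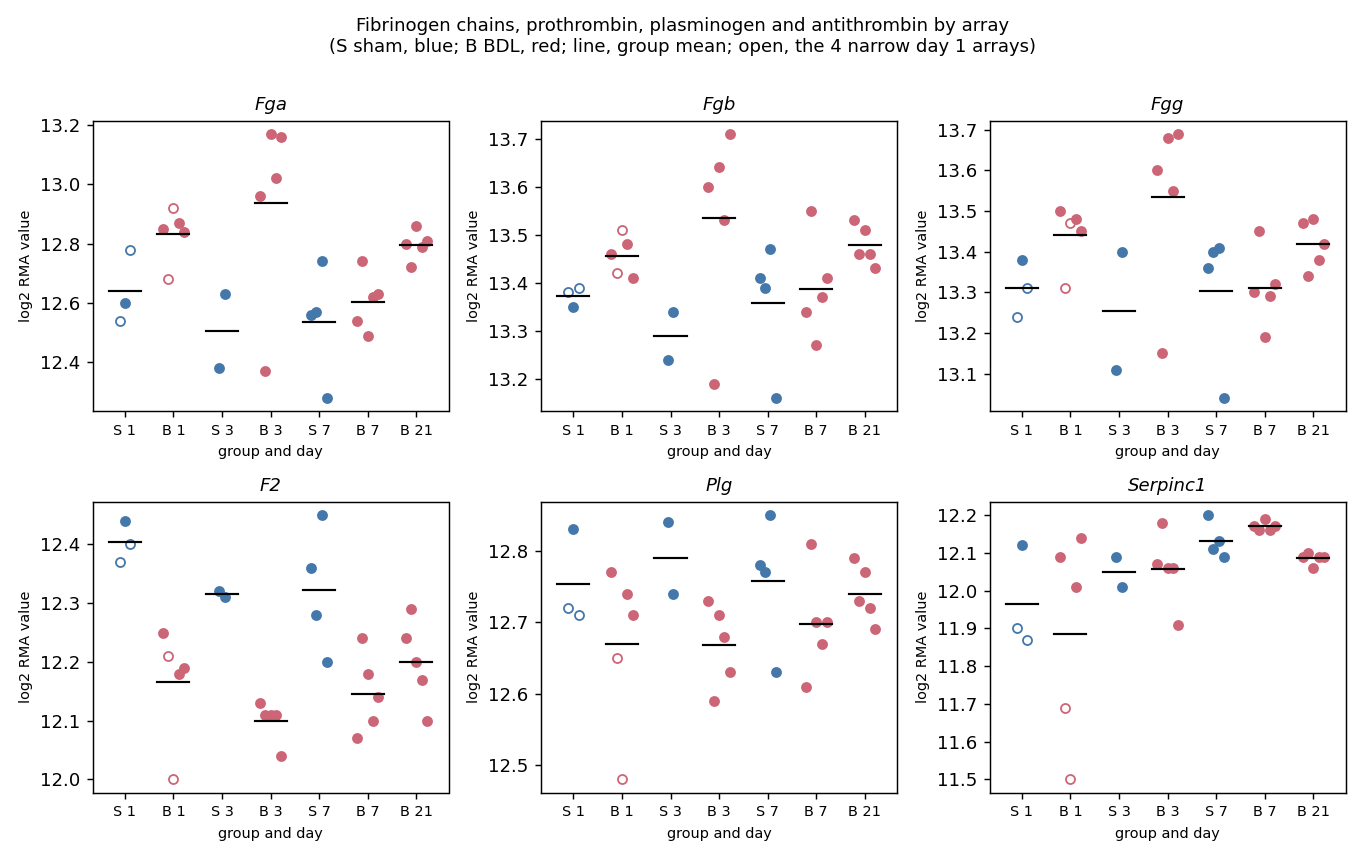
Log2 signal in each of the 29 arrays for the 3 fibrinogen chains, prothrombin, plasminogen and antithrombin, by group and day, with sham in blue, BDL in red, a line at each group mean and open circles for the 4 narrow day 1 arrays. None of the 6 passed the test at any day in the full fit, and the low Fga point of BDL at day 3 is replicate 2 at 12.37.

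F11, a protease that thrombin activates and that feeds back to factor IX, rose first and fell later. F11 in sham read 9.47, 9.92 and 9.68 at day 1, 9.90 and 9.87 at day 3 and 9.46, 10.11, 9.84 and 10.33 at day 7. In BDL F11 read 10.63, 10.39, 10.60, 10.80 and 10.79 at day 1, 10.10, 10.04, 10.46, 10.56 and 10.40 at day 3, 9.59, 9.46, 9.55, 9.45 and 9.64 at day 7 and 9.40, 9.42, 9.11, 9.34 and 9.33 at day 21. Every BDL array was above sham at days 1 and 3, the groups overlap at day 7, and every BDL array of day 21 was below every sham array. F11 rose by 0.95 ± 0.15 at day 1, or 1.94-fold (adjusted p = 6.55e-05), and fell by 0.61 ± 0.14 at day 21 (adjusted p = 0.00117), and both calls held in every alternative. The fall at day 7 was 0.39 ± 0.14 (adjusted p = 0.0426) and the call was lost without Sham day 7 replicates 2, 3 or 4 (adjusted p 0.0527 to 0.222), without BDL day 7 replicates 1, 2, 3, 4 or 5 (adjusted p 0.0519 to 0.0859), without the filter on low signal (adjusted p 0.0612) and with only the groups compared in the fit (adjusted p 0.0839). At day 3 the difference of F11 was 0.42 ± 0.17 (adjusted p = 0.122). Its effect at day 7 minus that at day 1, tested directly, was -1.35 ± 0.20 (adjusted p = 0.000736), a call that held in every alternative. F12, which starts contact activation, stayed within 0.09 of sham. Kng1, the kininogen that carries factor XI and shares near-identical sequence with Kng2, was lower at day 1 by 0.34 ± 0.11 (adjusted p = 0.0415), a call lost without BDL day 1 replicates 2, 3, 4 or 5 (adjusted p 0.0516 to 0.0831), without Sham day 1 replicates 2 or 3 (adjusted p 0.119 to 0.193), without the filter on low signal (adjusted p 0.0676), with only the groups compared in the fit (adjusted p 0.205), outside the narrow arrays (adjusted p 0.204) and within the narrow arrays (adjusted p 0.164).

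Among the anticoagulants, protein S rose while protein C fell slightly. Pros1 encodes protein S, the cofactor of activated protein C. Pros1 in sham read 8.54, 9.21 and 8.73 at day 1, 9.46 and 8.98 at day 3 and 9.17, 9.03, 9.08 and 8.78 at day 7. In BDL Pros1 read 8.94, 8.59, 8.52, 8.28 and 8.95 at day 1, 9.94, 9.45, 10.11, 9.74 and 10.48 at day 3, 9.67, 9.80, 9.66, 9.78 and 9.77 at day 7 and 10.08, 9.57, 10.12, 9.84 and 9.85 at day 21. The groups overlap at day 1, touch at day 3, where the lowest BDL array was just below the higher sham array, and separate at days 7 and 21. Pros1 rose by 0.72 ± 0.21 at day 3 (adjusted p = 0.0267), 0.72 ± 0.17 at day 7 (adjusted p = 0.0028) and 0.88 ± 0.17 at day 21 (adjusted p = 0.000263), the last a rise of 1.84-fold. The day 1 difference was -0.17 ± 0.19 (adjusted p = 0.623). The calls at days 7 and 21 held in every alternative, and the day 3 call was lost without BDL day 3 replicates 3 or 5 (adjusted p 0.057 to 0.0658), without Sham day 3 replicate 2 (adjusted p 0.371) and with only the groups compared in the fit (adjusted p 0.13).

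The window before Pros1 is shown because protein S was the member with the largest rise at day 21 and its window matched 3 of the motifs. It lies at chr16:62854057-62854306 on the plus strand (RefSeq, GRCm38.p6), and capitals mark the same motifs. From the 5′ end they are a C/EBP match from 223 to 216 bases before the start, a STAT match from 92 to 84, and interleukin-6 response core matches from 80 to 75 on the minus strand and from 47 to 42 on the plus strand.
Pros1: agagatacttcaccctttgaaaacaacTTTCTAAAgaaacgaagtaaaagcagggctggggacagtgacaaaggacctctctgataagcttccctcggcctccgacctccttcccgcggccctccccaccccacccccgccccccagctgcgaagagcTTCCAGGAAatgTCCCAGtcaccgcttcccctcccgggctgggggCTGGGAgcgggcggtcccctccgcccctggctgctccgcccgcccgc

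Proc encodes protein C. Proc in sham read 10.98, 11.50 and 10.97 at day 1, 11.38 and 11.37 at day 3 and 11.28, 11.36, 11.47 and 11.41 at day 7. In BDL Proc read 10.95, 10.88, 10.58, 10.82 and 11.12 at day 1, 11.04, 11.14, 11.13, 11.16 and 11.09 at day 3, 11.04, 11.02, 11.10, 11.07 and 11.14 at day 7 and 11.19, 11.02, 11.08, 11.09 and 11.10 at day 21. The BDL arrays lay below sham at days 3, 7 and 21 and overlapped it at day 1. Proc fell by 0.31 ± 0.10 at day 7 (adjusted p = 0.0296) and by 0.28 ± 0.10 at day 21 (adjusted p = 0.0361). Neither call was stable: the day 7 call was lost without Sham day 7 replicates 2, 3 or 4 (adjusted p 0.0555 to 0.0864) and without BDL day 7 replicates 1, 2 or 4 (adjusted p 0.0508 to 0.0553), and the day 21 call without Sham day 7 replicates 2, 3 or 4 (adjusted p 0.0643 to 0.0999), without BDL day 21 replicates 2, 3, 4 or 5 (adjusted p 0.0588 to 0.0747), without the filter on low signal (adjusted p 0.057) and against all 9 sham arrays together (adjusted p 0.0667). At day 1 Proc differed by -0.28 ± 0.11 (adjusted p = 0.0865), with the narrow arrays as a term by -0.37 (adjusted p = 0.00435) and outside them by -0.54 (adjusted p = 0.0121).

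Antithrombin, the product of Serpinc1 and the main inhibitor of thrombin, was not called at any day. Serpinc1 in sham read 11.90, 12.12 and 11.87 at day 1, 12.09 and 12.01 at day 3 and 12.20, 12.11, 12.13 and 12.09 at day 7. In BDL Serpinc1 read 12.09, 11.69, 11.50, 12.01 and 12.14 at day 1, 12.07, 12.18, 12.06, 12.06 and 11.91 at day 3, 12.17, 12.16, 12.19, 12.16 and 12.17 at day 7 and 12.09, 12.10, 12.06, 12.09 and 12.09 at day 21. The groups overlap at each day, and the low arrays at day 1 are BDL replicates 2 and 3, both narrow. Its largest difference was -0.08 ± 0.11, at day 1, with a 95% interval from -0.30 to 0.15. Serpind1, heparin cofactor II, differed by -0.22 to -0.03 and was not called.

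Of the 3 fibrinolysis genes tested, Hrg was the 1 called. Plg encodes plasminogen, the precursor of the enzyme that dissolves fibrin. Plg in sham read 12.72, 12.83 and 12.71 at day 1, 12.84 and 12.74 at day 3 and 12.78, 12.77, 12.85 and 12.63 at day 7. In BDL Plg read 12.77, 12.65, 12.48, 12.74 and 12.71 at day 1, 12.73, 12.59, 12.71, 12.68 and 12.63 at day 3, 12.61, 12.81, 12.70, 12.67 and 12.70 at day 7 and 12.79, 12.73, 12.77, 12.72 and 12.69 at day 21. Its groups overlap at days 1, 7 and 21, and the largest difference, -0.12 ± 0.10 at day 3, had a 95% interval from -0.31 to 0.08. Serpinf2, the main plasmin inhibitor, stayed within 0.13 of sham. Hrg encodes histidine-rich glycoprotein, which binds plasminogen and heparin. Hrg in sham read 12.29, 13.01 and 11.99 at day 1, 12.89 and 12.62 at day 3 and 12.50, 12.77, 12.94 and 12.62 at day 7. In BDL Hrg read 12.63, 12.32, 12.14, 12.51 and 13.03 at day 1, 13.21, 13.06, 13.25, 13.34 and 13.21 at day 3, 12.91, 12.80, 12.95, 13.05 and 13.08 at day 7 and 13.44, 13.17, 13.37, 13.19 and 13.17 at day 21. BDL arrays were above sham at days 3 and 21 without overlap, and Hrg rose by 0.56 ± 0.16 at day 21 (adjusted p = 0.0088), a call that held in every alternative. At day 3 the difference was 0.46 ± 0.20 (adjusted p = 0.15). This passed with cyclic loess normalization (0.45, adjusted p = 0.0431) and against all 9 sham arrays together (0.59, adjusted p = 0.00149).

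**Figure D4:**
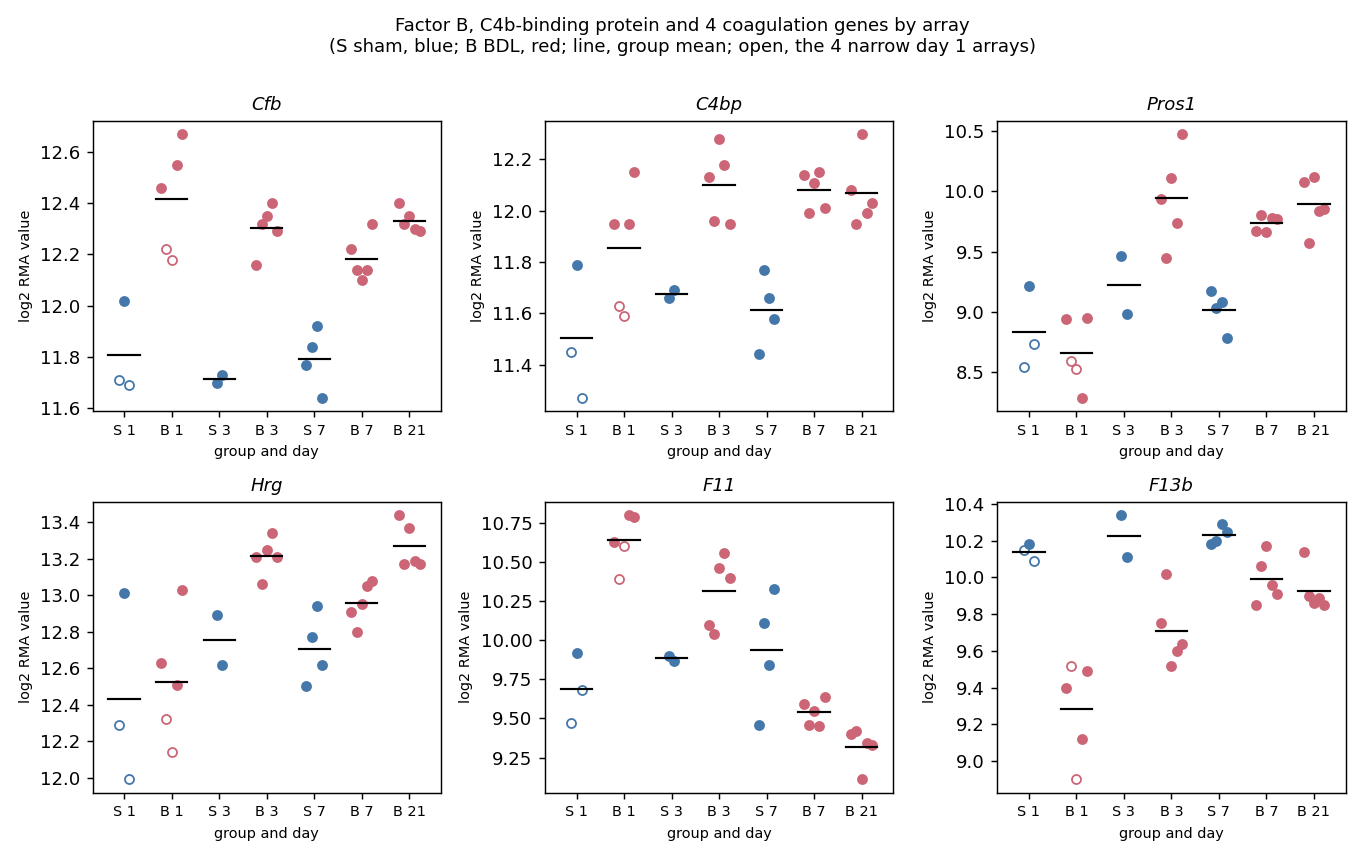
Log2 signal in each of the 29 arrays for factor B, C4b-binding protein, protein S, histidine-rich glycoprotein, factor XI and the factor XIII B chain, by group and day, with sham in blue, BDL in red, a line at each group mean and open circles for the 4 narrow day 1 arrays. All BDL points of Cfb lie above all sham points, and F11 passes from 10.39 to 10.80 in BDL at day 1 to 9.11 to 9.42 at day 21.

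Successive days of BDL were compared next, without sham arrays. From day 1 to day 3, 8 members rose and 0 fell, where 12% of all genes rose and 6.44% fell. At an unadjusted p under 0.05 in limma, 14 were higher and 2 lower. Pros1 rose by 1.29 ± 0.16 (adjusted p = 8.46e-06), Cfi by 0.71 ± 0.13 (adjusted p = 0.000401) and Hrg by 0.69 ± 0.15 (adjusted p = 0.00224), and these calls held in every alternative, with Hrg at 0.43 with the narrow arrays as a term. The rise of Kng1, 0.51 ± 0.10, also held. C1s1, F13b, Masp1 and F9 rose by 0.63 ± 0.16, 0.42 ± 0.11, 0.46 ± 0.15 and 0.38 ± 0.13. The C1s1 call was lost with the mean of its rows (adjusted p 0.104), with the narrow arrays as a term (adjusted p 0.0659) and outside the narrow arrays (adjusted p 0.114), and the F13b call with only the groups compared in the fit (adjusted p 0.0641). The Masp1 call was lost without BDL day 3 replicates 3, 4 or 5 (adjusted p 0.0613 to 0.0662), without BDL day 1 replicates 2 or 3 (adjusted p 0.0838 to 0.122), with only the groups compared in the fit (adjusted p 0.066), with the narrow arrays as a term (adjusted p 0.278) and outside the narrow arrays (adjusted p 0.209). For F9 the call was lost without BDL day 3 replicates 1, 2, 3 or 4 (adjusted p 0.0591 to 0.104), without BDL day 1 replicates 2, 3 or 4 (adjusted p 0.0606 to 0.18), without the filter on low signal (adjusted p 0.0636), with cyclic loess normalization (adjusted p 0.0816), with only the groups compared in the fit (adjusted p 0.108), with the narrow arrays as a term (adjusted p 0.264) and outside the narrow arrays (adjusted p 0.274). With that term Masp1 differed by 0.19 and F9 by 0.24, and the split was 5 higher and 3 lower, with Mbl2 at -0.97 (adjusted p = 0.0128), F11 at -0.44 (adjusted p = 0.0335) and Cfb at -0.25 (adjusted p = 0.0335), and with cyclic loess normalization it was 7 higher and 4 lower. Without BDL day 1 replicate 5, 15 members rose.

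From day 3 to day 7, 3 members rose and 2 fell, where 4.6% of all genes rose and 1.1% fell. Mbl2 rose by 1.76 ± 0.25, or 3.38-fold (adjusted p = 0.000138), and its day 7 arrays all lay above its day 3 arrays. C6 rose by 0.79 ± 0.17 (adjusted p = 0.00549) and C9 by 0.67 ± 0.15 (adjusted p = 0.00664), so these 3 complement genes were nearer to sham at day 7 than at day 3. F11 fell by 0.77 ± 0.13 (adjusted p = 0.000676). Those 4 calls held in every alternative, while that of Kng1, which fell by 0.35 ± 0.10 (adjusted p = 0.0318), was lost without BDL day 7 replicates 1, 3, 4 or 5 (adjusted p 0.0514 to 0.0703), without BDL day 3 replicates 1, 3, 4 or 5 (adjusted p 0.0504 to 0.0927) and without the filter on low signal (adjusted p 0.0504). Without BDL day 3 replicate 2, 8 members were called, 4 higher and 4 lower. From day 7 to day 21 only C1s1 was called, higher by 0.92 ± 0.16 (adjusted p = 0.00259), where 0.401% of all genes rose and 0.463% fell, and this call was lost with the mean of its rows (adjusted p 0.479). Mbl2, which overlapped sham at day 7 and lay below it at day 21, differed by -0.96 ± 0.25 between those days (adjusted p = 0.0683). With only the groups compared in the fit this difference passed (adjusted p = 0.00661).

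The effect of BDL at day 7 minus its effect at day 1, tested as an interaction, was called for 4 members, 3 higher and 1 lower, where 3.48% of all genes were higher and 0.857% lower. Besides F11, they were C6 at 0.99 ± 0.27 (adjusted p = 0.0341), Pros1 at 0.89 ± 0.25 (adjusted p = 0.0407) and F13b at 0.61 ± 0.17 (adjusted p = 0.0364). The C6 call was lost without Sham day 7 replicates 1, 2 or 4 (adjusted p 0.0522 to 0.0587), without BDL day 7 replicates 3, 4 or 5 (adjusted p 0.0504 to 0.0629), without BDL day 1 replicates 1, 3 or 4 (adjusted p 0.0529 to 0.0624), without Sham day 1 replicate 2 (adjusted p 0.114) and with only the groups compared in the fit (adjusted p 0.0619), and the value was 1.51 outside the narrow arrays. The Pros1 call was lost without Sham day 7 replicates 2, 3 or 4 (adjusted p 0.058 to 0.0879), without BDL day 7 replicates 1, 2, 3, 4 or 5 (adjusted p 0.0523 to 0.0659), without BDL day 1 replicates 2, 3 or 4 (adjusted p 0.0614 to 0.0799), without Sham day 1 replicates 2 or 3 (adjusted p 0.0588 to 0.113), without the filter on low signal (adjusted p 0.0567) and outside the narrow arrays (adjusted p 0.064). For F13b the call was lost without Sham day 7 replicates 1, 2, 3 or 4 (adjusted p 0.052 to 0.0588), without BDL day 7 replicates 2, 3 or 4 (adjusted p 0.0501 to 0.0725), without Sham day 1 replicates 1, 2 or 3 (adjusted p 0.0567 to 0.0646), without BDL day 1 replicates 3 or 4 (adjusted p 0.0621 to 0.07), without the filter on low signal (adjusted p 0.0562), with only the groups compared in the fit (adjusted p 0.0682) and outside the narrow arrays (adjusted p 0.133). These 3 calls sit close to the threshold.

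Sham livers of different days were compared in the same way. Between sham at day 1 and sham at day 7, C8g was lower at day 1 by 0.68 ± 0.20 (adjusted p = 0.0498) and no other member was called, where 1.15% of all genes were higher and 2.96% lower. The C8g call was lost without Sham day 7 replicates 1, 2, 3 or 4 (adjusted p 0.0522 to 0.118), without Sham day 1 replicates 1 or 3 (adjusted p 0.234 to 0.333), without the filter on low signal (adjusted p 0.0668), with cyclic loess normalization (adjusted p 0.063), with only the groups compared in the fit (adjusted p 0.256) and with the narrow arrays as a term (adjusted p 0.756). It was also lost with the rows of other genes averaged (adjusted p 0.0512), where C8g, which has 1 row, stayed at -0.68. Outside the narrow arrays C8g differed by -0.11. With the narrow arrays as a term C8g differed by -0.18. Without Sham day 1 replicate 2, 6 members were lower. Other genes moved between these sham days: 169 of all genes were higher at day 1 and 435 lower. Of 23 further plasma proteins, 5 were higher, by up to 2.24 for Orm2. Of 10 markers each, 3 of sinusoidal endothelium and 1 of stellate cells were lower, with medians of -0.60 and -0.66. Between sham at day 3 and sham at day 7, 0 members were called in limma, at adjusted and at unadjusted p under 0.05, where 0% of all genes were called higher and 0% lower. At unadjusted p, 276 of all genes were higher and 351 lower.

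Genes outside the list that belong to the same systems were counted in the same way. Of 25 further complement genes tested, 2 were higher and 4 lower at day 1 (8% and 16%), 7 and 1 at day 3 (28% and 4%), 12 and 1 at day 7 (48% and 4%), and 13 and 2 at day 21 (52% and 8%). The shares of all tested genes were 8.52% and 4.8%, 6.47% and 3.69%, 14.2% and 4.97%, and 17.3% and 7.9%. C1qb, a chain of the classical recognition protein that macrophages make, read 8.74, 8.89, 8.86 and 8.71 in sham at day 7, 10.16, 9.85, 10.32, 10.35 and 10.52 in BDL at day 7 and 10.63, 10.76, 10.86, 11.19 and 10.86 in BDL at day 21. C1qb rose by 1.44 ± 0.27 at day 7 (adjusted p = 0.000294) and 2.06 ± 0.27 at day 21 (adjusted p = 1.36e-06), with no overlap. C3ar1, the receptor of the C3a fragment, rose by 1.10 ± 0.22, 1.59 ± 0.18 and 2.26 ± 0.18 at days 3, 7 and 21 (adjusted p = 0.00152, 2.73e-07 and 3.09e-10). C5ar1, the C5a receptor, rose by 1.51 ± 0.19 at day 21 (adjusted p = 4.73e-07) from a sham mean under the filter level, so this size depends on background. Itgam, a chain of a complement receptor on myeloid cells, rose by 1.36 ± 0.24 at day 1 and 1.93 ± 0.22 at day 21 (adjusted p = 0.00028 and 1.5e-07), and Cd93, a glycoprotein of endothelial and myeloid cells, by 0.74 ± 0.17 and 1.50 ± 0.15 (adjusted p = 0.00331 and 2.55e-08). The day 1 call of Cd93 was lost without Sham day 1 replicate 1 (adjusted p 0.0506) and outside the narrow arrays (adjusted p 0.299), and the difference was 0.48 against all 9 sham arrays together. The summed level of 10 Kupffer cell markers, which include the C1q chains, ran from 11.13 to 11.96 in sham, 12.55 to 13.04 in BDL at day 7 and 12.67 to 13.37 at day 21. That of 10 markers of monocyte-derived macrophages, Itgam among them, ran from 9.36 to 10.22 in sham and from 11.54 to 12.23 in BDL at days 7 and 21, with 4 or 5 of the 10 under the filter level in each sham group and 0 in BDL at days 7 and 21. The part of these cells in the rises was not tested.

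Falls among the further complement genes were most numerous at day 1. Colec10, a collectin of the lectin route, fell by 1.33 ± 0.26 at day 1 (adjusted p = 0.000641) and by 0.85 ± 0.24 at day 21 (adjusted p = 0.00799). Cd59a and Cd59b, membrane proteins that block the pore, fell by 1.13 ± 0.33 and 0.89 ± 0.23 at day 1 (adjusted p = 0.0213 and 0.00766). Cd59a read 8.43, 9.70 and 8.42 in sham and 8.38, 6.78, 6.95, 7.52 and 8.97 in BDL at day 1, and the lowest BDL values are those of the narrow arrays. Its call was lost without BDL day 1 replicates 2 or 3 (adjusted p 0.0562 to 0.058), without Sham day 1 replicate 2 (adjusted p 0.164) and with only the groups compared in the fit (adjusted p 0.23), with a difference of -0.71 without Sham day 1 replicate 2. The day 1 call of Cd59b was lost without Sham day 1 replicate 3 (adjusted p 0.065) and outside the narrow arrays (adjusted p 0.365) and that of Colec10 within the narrow arrays (adjusted p 0.0697). At day 21 Cd59a differed by -0.02 ± 0.31 and Cd59b by -0.15 ± 0.21, without passing the test. Cd59a and Cd59b are close copies of each other, so their values are uncertain. Markers of sinusoidal endothelium moved with these falls: 6 of 10 were lower at day 1 (60%, against 4.8% of all tested genes), with a median of -0.65. The summed level of these markers ran from 10.96 to 11.79 in sham and from 10.42 to 10.93 in BDL. Their part in the falls was not tested.

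Of 27 further clotting and fibrinolysis genes tested, 6 were higher and 2 lower at day 1 (22.2% and 7.41%), 6 and 0 at day 3 (22.2% and 0%), 9 and 0 at day 7 (33.3% and 0%), and 9 and 1 at day 21 (33.3% and 3.7%). At an unadjusted p under 0.05 in limma, 2 were lower at day 3 and 1 at day 7. Called shares of all tested genes were 8.52% and 4.8%, 6.47% and 3.69%, 14.2% and 4.97%, and 17.3% and 7.9%. Anxa2, a cell-surface docking site of plasminogen and its activator, rose by 2.10 ± 0.28 at day 1 (adjusted p = 5.68e-06) and 2.66 ± 0.26 at day 21 (adjusted p = 7.86e-09), or 6.33-fold. Plat, the tissue-type plasminogen activator, rose by 0.59 ± 0.19, 1.00 ± 0.15 and 1.63 ± 0.15 at days 3, 7 and 21 (adjusted p = 0.0412, 1.74e-05 and 4.28e-09), and Plaur, the urokinase receptor, by 0.74 ± 0.18 at day 1 and 1.10 ± 0.16 at day 21 (adjusted p = 0.0052 and 7.29e-06). Thbd, the endothelial thrombomodulin that turns thrombin toward protein C, rose by 0.95 ± 0.19 at day 1 and 1.33 ± 0.18 at day 21 (adjusted p = 0.00109 and 1.23e-06). F13a1, the catalytic chain of factor XIII, which macrophages and platelets make, rose by 1.05 ± 0.22 at day 1 and 1.76 ± 0.25 at day 3 (adjusted p = 0.00133 and 2.12e-05). Its BDL arrays also lay above sham later, at 6.08 to 6.92 at day 7 and 6.43 to 7.35 at day 21. The sham arrays of day 7 read 5.13 to 6.01. In the full fit the hepatic chain gene F13b was called lower at days 1 and 3, and its day 21 difference lay near the threshold. The day 3 call of Plat was lost without BDL day 3 replicates 1, 3, 4 or 5 (adjusted p 0.0597 to 0.087), without Sham day 3 replicates 1 or 2 (adjusted p 0.153 to 0.222), without the filter on low signal (adjusted p 0.0582), with cyclic loess normalization (adjusted p 0.0517) and with only the groups compared in the fit (adjusted p 0.0581). At day 1 the call of Plaur was lost without Sham day 1 replicate 3 (adjusted p 0.0843), with only the groups compared in the fit (adjusted p 0.0682) and within the narrow arrays (adjusted p 0.163), that of Thbd outside the narrow arrays (adjusted p 0.132) and that of F13a1 within the narrow arrays (adjusted p 0.0977). Kng2, the second kininogen gene, rose by 0.89 ± 0.14 at day 3 (adjusted p = 7.53e-05). F3, tissue factor, which starts clotting, was not called, with differences of -0.25 ± 0.18, -0.32 ± 0.20, -0.13 ± 0.16 and -0.03 ± 0.16. Summed levels of 7 platelet markers ran from 7.78 to 8.01 in sham and from 7.78 to 8.10 in BDL, with 4 of the 7 under the filter level. Other cell markers moved with the rises of this group. Of 10 stellate cell and myofibroblast markers, 8 were higher at day 7 and 9 at day 21, with summed levels of 11.19 to 12.41 in sham at day 7, 12.22 to 12.59 in BDL at day 7 and 12.58 to 13.17 at day 21. Of 6 cholangiocyte markers tested, 6 were higher at days 7 and 21, and the summed level of the 7 measured ran from 8.33 to 8.87 in sham at day 7, 9.37 to 9.77 in BDL at day 7 and 9.68 to 10.18 at day 21. Their part in the rises was not tested.

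Of 17 genes that regulate these proteins in hepatocytes, 3 were higher and 2 lower at day 1 (17.6% and 11.8%), 1 and 2 at day 3 (5.88% and 11.8%), 1 and 3 at day 7 (5.88% and 17.6%), and 2 and 3 at day 21 (11.8% and 17.6%). Among all tested genes the shares were 8.52% and 4.8%, 6.47% and 3.69%, 14.2% and 4.97%, and 17.3% and 7.9%. Cebpa, a factor that keeps up hepatocyte secretory genes, read 10.56, 10.08 and 10.47 in sham and 9.04, 9.50, 9.05, 9.13 and 9.29 in BDL at day 1. Cebpa fell by 1.17 ± 0.14, 1.00 ± 0.16, 0.58 ± 0.13 and 0.69 ± 0.13 at days 1, 3, 7 and 21 (adjusted p = 1.68e-06, 0.00014, 0.0016 and 0.000162). Nr1h4, the bile acid receptor FXR, fell by 1.00 ± 0.13 at day 1 and 0.63 ± 0.12 at day 21 (adjusted p = 4.6e-06 and 0.000166). Il1r1, the interleukin-1 receptor, rose by 1.62 ± 0.35 at day 1 (adjusted p = 0.00217), and Cebpd, an acute phase factor, by 0.80 ± 0.21 (adjusted p = 0.0122). Socs3, a feedback inhibitor of interleukin-6 signals, rose by 1.15 ± 0.36 at day 3 (adjusted p = 0.0415), while its difference at day 1 was 0.87 ± 0.32 (adjusted p = 0.0694). The day 3 call of Socs3 was lost without BDL day 3 replicates 3, 4 or 5 (adjusted p 0.0777 to 0.0994), without Sham day 3 replicate 1 (adjusted p 0.523), without the filter on low signal (adjusted p 0.0541), with the mean of its rows (adjusted p 0.0547), with only the groups compared in the fit (adjusted p 0.129) and with a trended, robust variance prior (adjusted p 0.054), with a difference of 0.64 without Sham day 3 replicate 1. At day 1 the call of Il1r1 was lost outside the narrow arrays (adjusted p 0.291) and that of Cebpd outside the narrow arrays (adjusted p 0.0843) and within the narrow arrays (adjusted p 0.195). Stat3, which carries the interleukin-6 signal, rose by 0.44 ± 0.14 at day 21 (adjusted p = 0.0217), and the kinase gene Jak1 by 0.36 ± 0.10, 0.34 ± 0.10 and 0.33 ± 0.10 at days 1, 7 and 21. Foxa2 fell by 0.51 ± 0.15 at day 7 (adjusted p = 0.0128) and Onecut1 by 1.55 ± 0.56 at day 21 (adjusted p = 0.0425), both liver transcription factors. The day 21 call of Stat3 was lost without Sham day 7 replicate 4 (adjusted p 0.108), and the day 1 call of Jak1 without Sham day 1 replicates 1 or 3 (adjusted p 0.0868 to 0.207), with only the groups compared in the fit (adjusted p 0.251), outside the narrow arrays (adjusted p 0.601) and against all 9 sham arrays together (adjusted p 0.671), with a difference of 0.15 outside the narrow arrays, 0.07 against all 9 sham arrays together and 0.23 without Sham day 1 replicate 1. The Foxa2 call was lost without Sham day 7 replicate 3 (adjusted p 0.104) and with only the groups compared in the fit (adjusted p 0.0662), with a difference of -0.32 without that array. Onecut1 read 10.69, 7.56, 10.86 and 7.03 in sham at day 7 and 7.98, 7.36, 7.38, 7.40 and 7.28 in BDL at day 21, so the groups overlap. Its call was lost without Sham day 7 replicates 1 or 3 (adjusted p 0.221 to 0.238), without BDL day 21 replicates 2, 3, 4 or 5 (adjusted p 0.0706 to 0.0761), without the filter on low signal (adjusted p 0.0537), with only the groups compared in the fit (adjusted p 0.119) and with a trended, robust variance prior (adjusted p 0.0683), with differences of -1 without Sham day 7 replicate 1 and -0.95 without replicate 3. Hnf4a and Cebpb were not called at any day, with differences of -0.02 to 0.18 for Hnf4a and -0.32 to 0.17 for Cebpb.

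Other plasma proteins of the liver gave a scale for the members. Of 23 tested, 3 were higher and 2 lower at day 1 (13% and 8.7%), 10 and 3 at day 3 (43.5% and 13%), 9 and 3 at day 7 (39.1% and 13%), and 11 and 2 at day 21 (47.8% and 8.7%). For all tested genes the shares were 8.52% and 4.8%, 6.47% and 3.69%, 14.2% and 4.97%, and 17.3% and 7.9%. Orm2, an acid glycoprotein of the acute phase, rose by 2.02 ± 0.37, 2.63 ± 0.30 and 2.73 ± 0.30 at days 3, 7 and 21 (adjusted p = 0.000603, 3.28e-07 and 7.44e-08). Its difference at day 1 was 0.25 ± 0.33 (adjusted p = 0.7), with sham already at 12.83, 12.73 and 12.71 and BDL at 13.03, 12.69, 12.84, 13.04 and 13.40. At day 7 Orm2 in sham read 9.92, 11.28, 11.76 and 9.08, lower than at day 1 in all 4 arrays. Against all 9 sham arrays together Orm2 differed by 1.68 at day 7 and 1.79 at day 21. Orm1, a near-identical copy whose values are uncertain, rose by 0.47 ± 0.14, 0.86 ± 0.16, 0.67 ± 0.13 and 0.74 ± 0.13. Against all 9 sham arrays together its differences were 0.82, 0.40 and 0.47 at days 1, 7 and 21, and the day 1 call was lost without Sham day 1 replicate 1 (adjusted p 0.16), without BDL day 1 replicate 5 (adjusted p 0.0565), with only the groups compared in the fit (adjusted p 0.118), outside the narrow arrays (adjusted p 0.141) and within the narrow arrays (adjusted p 0.327). Cp, the copper carrier ceruloplasmin, rose by 0.98 ± 0.13 at day 1 and 1.14 ± 0.12 at day 21 (adjusted p = 9.66e-06 and 5.46e-08), and Igfbp1, a binding protein of insulin-like growth factors, by 1.76 ± 0.41 and 1.63 ± 0.38 (adjusted p = 0.00409 and 0.00159). The day 1 difference of Cp was 0.64 outside the narrow arrays. The day 1 call of Igfbp1 was lost without Sham day 1 replicate 1 (adjusted p 0.0826), with only the groups compared in the fit (adjusted p 0.0509) and within the narrow arrays (adjusted p 0.145), with a difference of 1.17 without Sham day 1 replicate 1. Itih3, a hyaluronan-binding chain, rose by 0.78 ± 0.16 at day 3 and 0.84 ± 0.13 at day 21 (adjusted p = 0.00187 and 1.14e-05). Itih1, a chain of the same family, fell by 0.35 ± 0.11 at day 1 (adjusted p = 0.029). The day 3 call of Itih3 was lost without Sham day 3 replicate 2 (adjusted p 0.0699) and the call of Itih1 without BDL day 1 replicates 2 or 3 (adjusted p 0.0654 to 0.0683), without Sham day 1 replicates 2 or 3 (adjusted p 0.0953 to 0.113), with only the groups compared in the fit (adjusted p 0.25) and outside the narrow arrays (adjusted p 0.177).

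**Figure D5:**
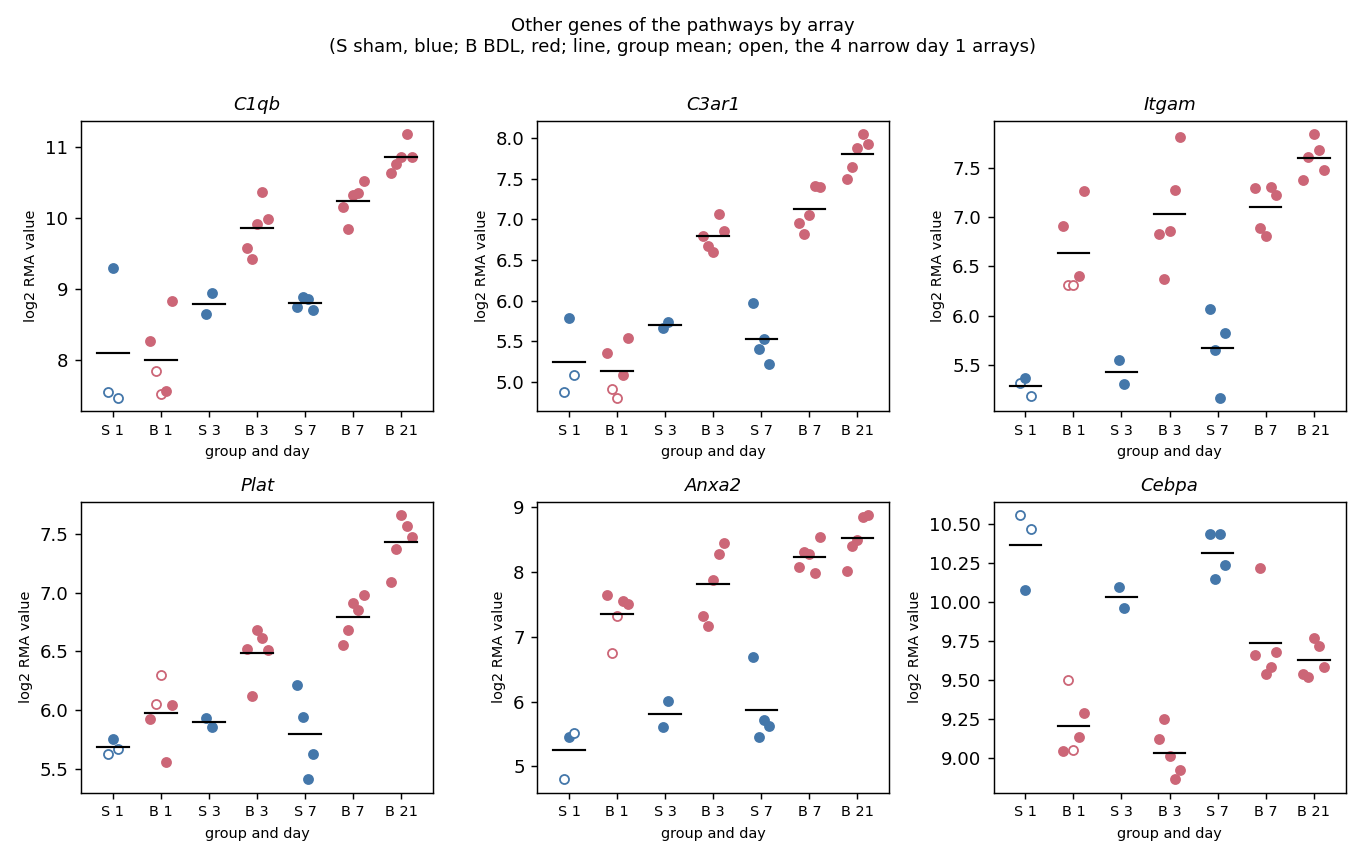
Log2 signal in each of the 29 arrays for 5 genes of the same systems that are outside the list, and for the regulator Cebpa, by group and day, with sham in blue, BDL in red, a line at each group mean and open circles for the 4 narrow day 1 arrays. C3ar1, Plat and Anxa2 are highest in BDL at day 21, and the group means of Cebpa are below sham at each day.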

How the data were processed

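Liver RNA of 29 mice was measured on 1 Affymetrix array each. Per the labels' protocols RNA was isolated with TRIzol and labelled for another Affymetrix mouse array than the one the row identifiers match, Mouse Gene 2.0 ST, whose platform table named the genes. The authors deposited log2 values. The submitters' processing notes name RMA, run in oligo 1.52.0, a method that removes background, gives all arrays 1 distribution and summarises probes; which arrays were normalized together and the genome build are not given in the sources used here.

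Rows with 1 symbol were kept, with the row of highest mean for each gene, and 14699 of 22180 genes with a log2 value over 5 in at least 3 arrays were tested. In limma 3.58.1 (lmFit, eBayes; R 4.3.3), a linear model over all 29 arrays gave each group its own mean. Adjusted p-values are two-sided Benjamini-Hochberg values over all genes tested, with a threshold of 0.05. Treatment and time in the labels set the groups, and each title has its own animal number, so the tests reflect the spread between these mice. Replicate numbers are accession order and only name an array. No 2 arrays held identical values. The number of arrays limits the precision, and the depth of an array has no count.

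The members and all gene lists were chosen with earlier results of these data known. All members are accounted for. Values in every array are given for Cfb, Fgb, F2, Serpinc1, Plg, Mbl2 and C9, for up to 4 called rises and 4 called falls without overlap in each comparison with sham, and for the 3 largest calls of the other comparisons. Of the other genes of each pathway, up to 4 with the largest called change in each comparison with sham were named, besides Hnf4a, Cebpa, Cebpb, Socs3, Stat3, F3 and Plat. Fits were tested on simulated data. Alternatives changed the filter, the rows, the normalization, the arrays fitted, the variance prior, the control group and the narrow day 1 arrays, and left out each array in turn. The fit within the narrow arrays was chosen after seeing the data. Sequences are RefSeq's (GRCm38.p6).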

Additional observations from a re-analysis of the deposited data

Results flagged for a closer look

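A single array lay far from the rest of its group for 13 of 175 sets of 4 or 5 arrays, a gap over the 95% limit of Dixon's test, which chance gives in about 1 set in 20. In BDL at day 3, replicate 2 was low for Fga at 12.37 (the others 12.96 to 13.17) and for Fgg at 13.15 (13.55 to 13.69). Replicate 5 of that group was low for C8a at 10.89 (11.59 to 11.65) and for Mbl1 at 8.78 (9.41 to 9.54). In BDL at day 1, the narrow array of replicate 3 was low for F2 at 12 (12.18 to 12.25), and the narrow array of replicate 2 was low for Fgg at 13.31 (13.45 to 13.50) and for Kng1 at 10.42 (10.59 to 10.66). In BDL at day 7, replicate 5 was high for C8b at 11.62 (11.48 to 11.52). In BDL at day 21, replicate 1 was high for C2 at 9.18 (8.90 to 8.98) and for F13b at 10.14 (9.85 to 9.90), and replicate 3 was high for F12 at 11.60 (11.48 to 11.50). In sham at day 7, replicate 3 was high for F10 at 11.20 (10.98 to 11.02) and replicate 4 was low for Fgg at 13.04 (13.36 to 13.41).

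The effect of BDL differed between day 7 and day 1 for 4 members by the interaction test. The day 7 effect minus the day 1 effect was 0.99 for C6, -1.35 for F11, 0.61 for F13b and 0.89 for Pros1 (log2).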

How the results depend on the processing

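Of 58 calls of members over all comparisons, 27 held in every alternative. Of 5810 values of members under an alternative, 5538 kept their side of the threshold, 168 lost a call, 104 gained one and 0 turned a called direction. The direction of values not called was not compared. Gained calls are named above only in part. With only the groups compared in the fit, the members called numbered 4 at day 1 (12 in the full fit), 3 at day 3 (7), 5 from day 1 to day 3 of BDL (8), 3 from day 7 to day 21 (1), 0 between sham at days 1 and 7 (1), and 2 for the effect at day 7 minus day 1 (4). Against all 9 sham arrays together they numbered 19 at day 1 and 18 at day 3. Cyclic loess gave 12 at day 3, 2 from day 7 to day 21 and 0 between the sham days. The mean of rows gave 0 from day 7 to day 21 and 0 between the sham days. Without the filter on low signal, 0 were called between the sham days and 2 for the effect at day 7 minus day 1. Outside the narrow arrays, where the lone sham array of day 1 is assumed to vary like the other groups, 7 were called at day 1, 0 between the sham days and 2 for the effect at day 7 minus day 1. With the narrow arrays as a term, 0 were called between the sham days and 17 at day 1. The cause of these shifts was not tested. Leaving out 1 array at a time gave 9 to 13 at day 1, 3 to 12 at day 3, 5 to 9 at day 7, 10 to 13 at day 21, 6 to 15 from day 1 to day 3 of BDL, 4 to 8 from day 3 to day 7, 1 to 1 from day 7 to day 21, 0 to 6 between sham at days 1 and 7, 0 to 0 between sham at days 3 and 7, and 1 to 4 for the effect at day 7 minus day 1. The day 3 comparison rests on 2 sham arrays. All these counts are of members and stand without the share of all genes called under the same setting. They do not show whether other genes gained or lost calls alike. No paired analysis was possible because the labels give no replicate numbers that groups share.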

Other observations

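The median of the 35 members within an array ran from 11.37 to 11.79 over the 9 sham arrays and from 10.85 to 11.62 over the 20 BDL arrays. The lowest, 10.85, was the narrow array of BDL day 1 replicate 3, and BDL day 3 replicate 5 had 11.19. The highest, 11.79, was Sham day 1 replicate 2, the only sham array of day 1 outside the narrow ones.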
